A study of Mus musculus with 8 samples.

Results

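Retinal ganglion cells are the output neurons of the eye, and 10 genes widely used to mark them were followed here in whole retinas: *Pou4f1*, *Pou4f2*, *Isl1*, *Ebf1*, *Ebf3*, *Rbpms*, *Sncg*, *Nefl*, *Nefm* and *Slc17a6*. They were chosen by name, as transcription factors, neurofilaments and other markers of this cell type, and all 10 were found among the 54532 genes of the count table. RNA from 4 *Mettl3*-CKO and 4 control retinal samples of mice was sequenced in bulk. The *Mettl3*-CKO mice carried Six3-Cre and floxed *Mettl3* alleles on both chromosomes (Six3-Cre+; Mettl3floxed/floxed), the controls were their littermates, and the controls' alleles are not given in the labels. All samples are labelled as postnatal day 7, while the study's methods give an age that is a day younger. *Mettl3* encodes the catalytic subunit of the complex that writes the m6A mark on RNA, and *Six3-Cre* is active in retinal progenitors from early in embryonic life, with deletion described for the central retina, so that the peripheral retina and cells that do not come from these progenitors may still carry the gene. Whether a sample pooled several retinas is not given in the sources used here, and p-values below measure the spread between these samples.

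Ganglion cells are the first neurons to be born in the retina. The progenitor factor ATOH7 makes cells competent for this fate, POU4F2 and ISL1 then act together to start the ganglion cell program, and POU4F1 and the EBF factors act later in differentiation and in the choice of subtype. Their axons form the optic nerve and are filled with neurofilaments, and the cells signal to the brain with glutamate that VGLUT2, the product of *Slc17a6*, loads into vesicles. Most of these genes are not exclusive to ganglion cells in the retina: *Isl1* is also active in ON bipolar cells and starburst amacrine cells, and *Ebf1* and *Ebf3* also in amacrine cells.

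Some of the members are close relatives, and their shared sequence bears on how reads are assigned to them. *Pou4f1* (ENSMUSG00000048349, 14:104461676-104467999, minus strand, GRCm38) and *Pou4f2* (ENSMUSG00000031688, 8:78433010-78436645, minus strand) encode closely related POU domain factors. Their longest identical stretch of coding sequence ran for 71 bases and lies in exon 2 of each gene, at chr14:104466054-104466124 and chr8:78435062-78435132. *Ebf1* (ENSMUSG00000057098, 11:44617317-45008091, plus strand) and *Ebf3* (ENSMUSG00000010476, 7:137193673-137314445, minus strand) shared at most 24 identical coding bases, in exon 1 of each, at chr11:44618230-44618253 and chr7:137313839-137313862. These stretches are shown as the longest identity between the genes of a pair, and all their letters are the same in both genes. The reads, according to the methods, were longer than either stretch.
Pou4f1 and Pou4f2: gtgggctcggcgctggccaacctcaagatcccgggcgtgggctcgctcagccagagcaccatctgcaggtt
Ebf1 and Ebf3: gagccgctgggcagcggcatgaac

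The promoter of *Pou4f1* is shown because this gene was the only member that passed the test, and that of *Pou4f2* because it is the closest relative. Both are the 250 bases before the annotated start (RefSeq, GRCm38.p6), at chr14:104468000-104468249 and chr8:78436648-78436897, both on the minus strand and read 5′ to 3′. Capitals mark CAGCTG, an E-box of the kind that proneural factors such as ATOH7 bind.
Pou4f1: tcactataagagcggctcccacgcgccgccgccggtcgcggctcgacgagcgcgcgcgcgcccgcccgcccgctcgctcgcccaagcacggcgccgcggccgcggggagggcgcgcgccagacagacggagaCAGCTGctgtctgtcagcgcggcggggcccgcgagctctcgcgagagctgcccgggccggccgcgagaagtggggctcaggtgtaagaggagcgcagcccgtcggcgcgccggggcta
Pou4f2: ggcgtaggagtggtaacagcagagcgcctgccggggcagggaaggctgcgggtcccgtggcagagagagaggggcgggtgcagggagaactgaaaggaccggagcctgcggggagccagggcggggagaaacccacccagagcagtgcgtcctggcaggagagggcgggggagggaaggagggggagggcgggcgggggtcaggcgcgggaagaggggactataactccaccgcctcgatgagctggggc

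RefSeq promoters were found for 7 of the 10 members, with 9 start sites in all. Each was searched on both strands for CAGCTG, for the homeodomain core TAATTA and for the EBF core CCCNNGGG, motifs that were chosen after the sequences had been seen. CAGCTG was found in *Pou4f1*, 118 bases before the start, and in *Isl1*, 103 bases before it, and 13% of the 32851 promoters held it. CCCNNGGG was found in *Ebf3*, 21 bases before the start, and in *Sncg*, 174 bases before it, against 11.8% of all promoters. TAATTA was found at the second start site of *Slc17a6*, 81 bases before it, against 4.84% of all promoters. The promoter of *Pou4f2* held none of the 3 letter strings.

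Total counts were 16227095 to 20281517 per sample, and each member had between 347 and 4511 counts in every sample. Levels are given as CPM, the counts of a gene scaled to the library's total over the tested genes and by TMM, and, where genes are compared with each other, as FPKM, the same value per kilobase of gene length. *Mettl3* itself ranged from 21.1 to 29.6 CPM among *Mettl3*-CKO samples and from 29.3 to 33.8 CPM among controls. It was lower by 0.38 on the log2 scale (SE 0.12) and did not pass edgeR's quasi-likelihood test after Benjamini-Hochberg adjustment (adjusted p = 0.0602), and *Mettl3*-CKO replicate 2 lay within the control range. The gene overlaps *Tox4* on the other strand, and its counts cover the whole gene and not the floxed part alone. Lens genes set control replicate 4 apart, with a summed level of 3502 CPM over 11 genes against at most 71.3 CPM in any other sample.

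*Pou4f1* rose in *Mettl3*-CKO retinas, and it was the only member of the 10 that passed the test. Of the other 9, 4 had positive and 5 had negative log2 fold changes, none past the threshold. With 1 of 10 members higher and 0 lower at an adjusted p under 0.05, the members were close to the background of all 17998 tested genes, of which 10.5% were called, 6.49% as higher and 4.05% as lower. The median log2 fold change of the members was -0.02, against -0.01 over all tested genes. The CPM of the groups did not overlap for 1 of the 10 members, against 17.4% of all tested genes. These are whole retinas, so in any of these levels a different number of ganglion cells and a different amount of RNA per cell cannot be told apart. The paper stained retinas of postnatal day 7 for BRN3A, the protein of *Pou4f1*, and reports comparable numbers of positive ganglion cells in mutants and controls. It describes its manual counting as done in the central retina, so these counts differ from the present levels in region and measure.

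**Figure D1:**
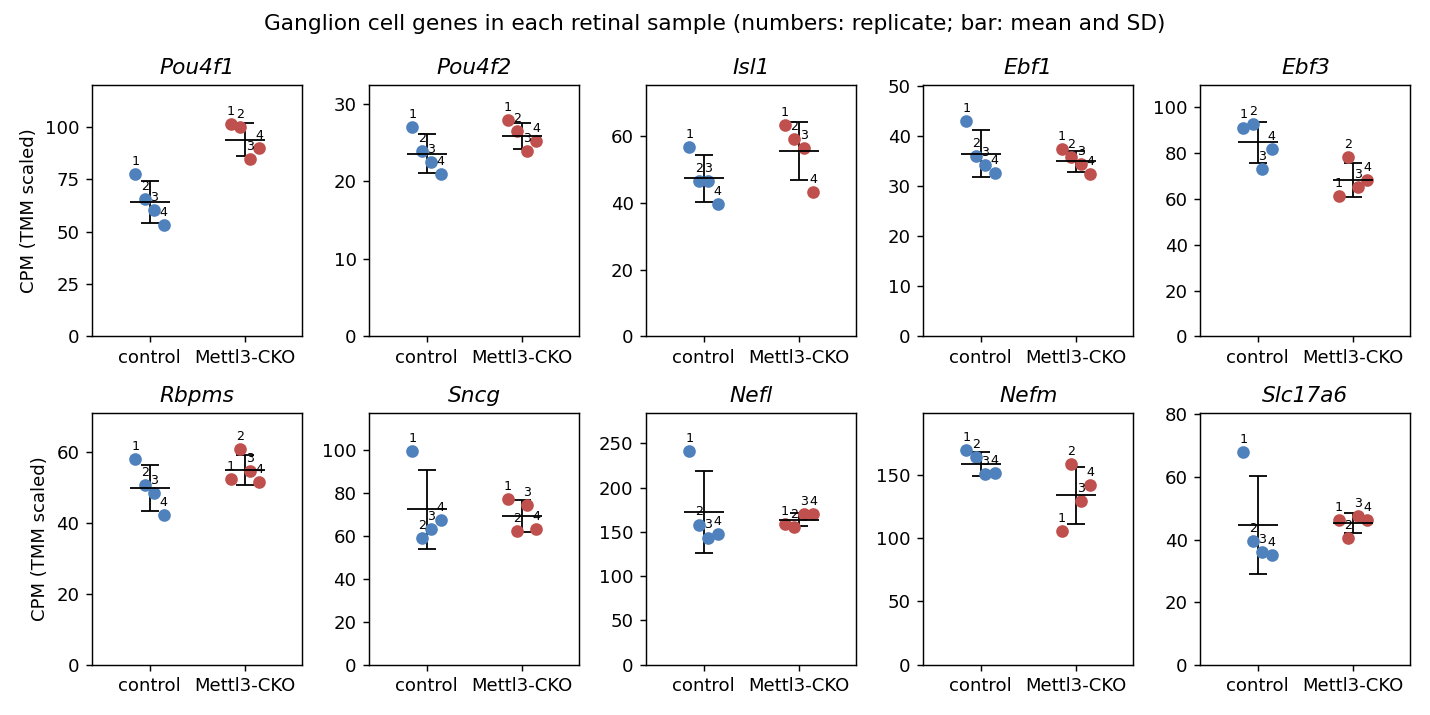
Levels of the 10 ganglion cell genes in CPM (vertical axes, from 0) in each of 4 control (blue) and 4 *Mettl3*-CKO (red) samples; small numbers are replicates, and bars give the mean and SD. The groups are apart for *Pou4f1* alone, and control replicate 1 is the highest control for 9 of the 10 genes.

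*Pou4f1*, which encodes the POU domain factor BRN3A and is kept on in most mature ganglion cells, was at 101, 100.2, 84.9 and 89.9 CPM in *Mettl3*-CKO replicates 1 to 4. In control replicates 1 to 4 it was at 77.5, 65.7, 60.5 and 53.4 CPM. Every *Mettl3*-CKO sample was above every control, and the nearest values were those of *Mettl3*-CKO replicate 3 and control replicate 1. The level was 1.46-fold higher, with a log2 fold change of 0.55 (SE 0.11, n = 4 per group), a 95% interval of 1.23 to 1.74-fold and an adjusted p of 0.0108 by edgeR's quasi-likelihood test. It passed in 8 of 8 fits that left out a sample, with log2 fold changes of 0.47 to 0.65, and adjusted p reached 0.0485 without *Mettl3*-CKO replicate 1.

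*Pou4f2*, the BRN3B gene that starts the ganglion cell program together with *Isl1*, was at 27.9, 26.6, 23.9 and 25.2 CPM in *Mettl3*-CKO samples and at 27.0, 23.9, 22.5 and 21.0 CPM in controls. The groups overlapped, since control replicate 1 was above 3 of the 4 *Mettl3*-CKO samples. The log2 fold change was 0.13 (SE 0.10, edgeR adjusted p = 0.473), and the 95% interval ran from 0.940 to 1.28-fold. The ratio of *Pou4f1* to *Pou4f2* in FPKM was 2.49, 2.59, 2.44 and 2.44 in *Mettl3*-CKO samples and 1.97, 1.89, 1.84 and 1.75 in controls. The ratio was thus higher in each *Mettl3*-CKO sample than in any control. The ratio has *Pou4f1* on top, whose own CPM did not overlap between groups, so it is not a separate result. On the log2 scale it was 1.32 ± 0.04 in *Mettl3*-CKO and 0.90 ± 0.07 in control samples (SD, n = 4), given without a test because the pair was set side by side after its values were known.

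*Isl1*, a LIM homeodomain gene (ENSMUSG00000042258, 13:116298281-116309689, minus strand), was at 63.4, 59.2, 56.6 and 43.2 CPM in *Mettl3*-CKO samples and at 56.8, 46.5, 46.5 and 39.7 CPM in controls. *Mettl3*-CKO replicate 4 stood well below the other 3 samples of its group, and control replicate 1 was among those 3. The log2 fold change was 0.23 (SE 0.13, edgeR adjusted p = 0.310), with a 95% interval of 0.963 to 1.43-fold. Among markers of the other cells that use *Isl1*, 2 of 9 tested ON bipolar genes were higher and 1 was lower, with summed levels of 1399 to 1482 CPM in *Mettl3*-CKO and 1331 to 1599 CPM in control samples. Of 8 starburst amacrine genes, 1 was higher and 0 were lower, with summed levels of 205 to 278 and 179 to 212 CPM. *Otx2* weighed heavily in the ON bipolar sums, with a mean of 946 CPM in *Mettl3*-CKO and 1075 CPM in control samples. *Sox2* did so in the starburst sums, with means of 117 and 87.3 CPM. The part of these other cells in the level of *Isl1* was not tested.

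*Ebf1* and *Ebf3* encode EBF family factors of early neurons. *Ebf1* was at 37.4, 35.8, 34.4 and 32.4 CPM in *Mettl3*-CKO samples and at 43.1, 36.0, 34.2 and 32.5 CPM in controls, with almost full overlap. Its log2 fold change was -0.06 (SE 0.10, edgeR adjusted p = 0.777), with an interval of 0.824 to 1.12-fold. *Ebf3* was at 61.2, 78.2, 65.1 and 68.0 CPM in *Mettl3*-CKO samples and at 91.1, 92.6, 73.1 and 81.8 CPM in controls. Only *Mettl3*-CKO replicate 2 lay within the control range, and the other 3 were below every control. The log2 fold change of *Ebf3* was -0.31 (SE 0.10), and the result depended on the tool. The adjusted p was 0.0773 in edgeR, 0.0342 in DESeq2 and 0.0335 in limma voom with sample quality weights. With DESeq2, 2 members passed against 14.2% of all tested genes, and with voom 2 against 20.6%, *Pou4f1* and *Ebf3* in each. Of 11 genes of other amacrine cells, where *Ebf3* is also active, 1 was lower and 0 were higher, and 9 had negative log2 fold changes.

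*Rbpms*, an RNA-binding protein gene used as a marker of nearly all ganglion cells (ENSMUSG00000031586, 8:33782643-33929863, minus strand), was at 52.4, 60.6, 54.7 and 51.5 CPM in *Mettl3*-CKO samples and at 57.8, 50.6, 48.5 and 42.1 CPM in controls. Control replicate 1 again lay among the *Mettl3*-CKO values while the other 3 controls were below them all. Its log2 fold change was 0.14 (SE 0.10, edgeR adjusted p = 0.462), with an interval of 0.941 to 1.29-fold. *Rbpms* is also made by mural cells of vessels. Of 9 tested mural genes 2 were higher and 2 lower, and 7 had negative log2 fold changes, with a median of -0.70. Summed levels were 55.1 to 73.8 CPM in *Mettl3*-CKO and 45.1 to 93.2 CPM in control samples. *Notch3*, 1 of the 2 higher genes, weighed heavily in these sums, with a mean of 38.9 CPM in *Mettl3*-CKO and 14.1 CPM in control samples. The part of mural cells in the level of *Rbpms* was not tested.

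*Sncg*, encoding γ-synuclein, an axonal protein of ganglion cells (ENSMUSG00000023064, 14:34370274-34374789, minus strand), was at 77.3, 62.4, 74.3 and 63.5 CPM in *Mettl3*-CKO samples and at 99.7, 59.2, 63.2 and 67.3 CPM in controls. Control replicate 1 was above all other samples, and the other 3 controls lay around the lower *Mettl3*-CKO values. For *Sncg* the log2 fold change was -0.06 (SE 0.15, edgeR adjusted p = 0.855), with an interval of 0.765 to 1.20-fold.

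*Nefl*, the light neurofilament gene (ENSMUSG00000022055, 14:68083863-68089095, plus strand), was at 159, 156, 170.2 and 170.3 CPM in *Mettl3*-CKO samples and at 241, 158, 144 and 148 CPM in controls. Control replicate 1 alone was far above the rest, and controls 3 and 4 were below all *Mettl3*-CKO samples. Over all samples the log2 fold change was -0.08 (SE 0.14, edgeR adjusted p = 0.801), with an interval of 0.765 to 1.18-fold. *Nefm*, the medium neurofilament gene (ENSMUSG00000022054, 14:68082590-68124846, minus strand), was at 105, 159, 130 and 142 CPM in *Mettl3*-CKO samples and at 169.6, 164, 150.3 and 151 CPM in controls. *Mettl3*-CKO replicate 1 was the lowest, and only replicate 2 of that group reached the control range. For *Nefm* the log2 fold change was -0.25 (SE 0.11, edgeR adjusted p = 0.200), and the interval of 0.711 to 0.999-fold, which is not adjusted for the number of genes, ended just below no change. The exons annotated for *Nefl* and *Nefm* overlap by 1108 bases on opposite strands, which is 32.8% of the 3380 exon bases of *Nefl*. Whether counting used strand is not given in the sources used here, so the values of both neurofilament genes are uncertain.

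*Slc17a6*, the VGLUT2 gene (ENSMUSG00000030500, 7:51622006-51671119, plus strand), was at 46.3, 40.6, 47.5 and 46.4 CPM in *Mettl3*-CKO samples and at 67.9, 39.4, 36.1 and 35.2 CPM in controls. Control replicate 1 was the highest of all samples, while the other 3 controls were below all 4 *Mettl3*-CKO samples. The log2 fold change over all samples was 0.02 (SE 0.18, edgeR adjusted p = 0.969), with an interval of 0.773 to 1.33-fold. Without control replicate 1 it was 0.29 with an adjusted p of 0.0299, and 2 of the 10 members passed, *Pou4f1* and *Slc17a6*, against 17.4% of all genes tested in that fit.

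**Figure D2:**
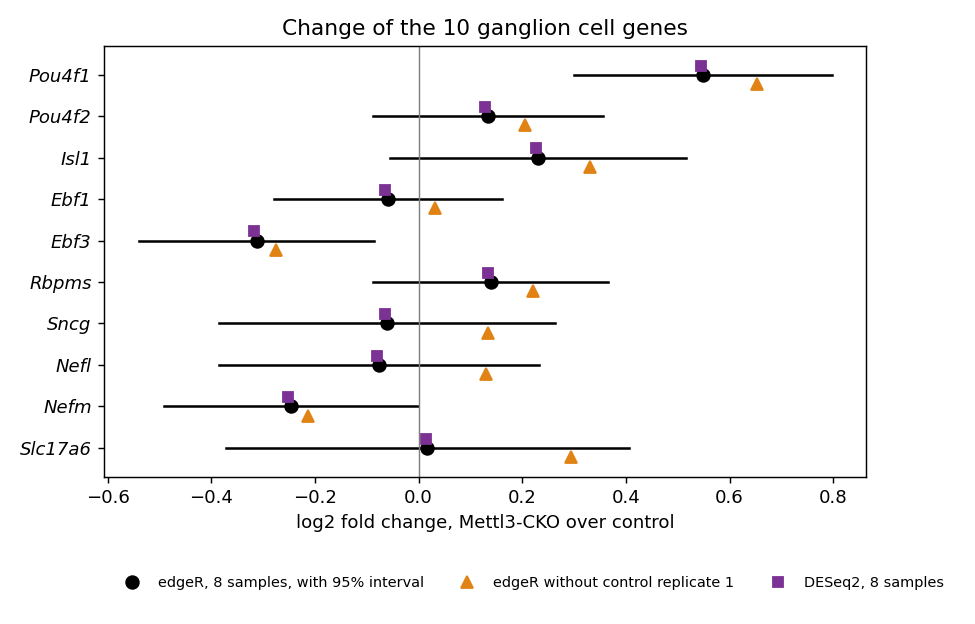
Log2 fold change of each gene, *Mettl3*-CKO over control (horizontal axis): black points with 95% intervals are edgeR with 8 samples, orange triangles edgeR without control replicate 1, and purple squares DESeq2 with 8 samples. Leaving out the control moves every gene to the right, most of all *Slc17a6* (0.02 to 0.29), and carries *Ebf1*, *Sncg* and *Nefl* across 0.

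Much of the variation among the members lay in that control. Its level was the highest of the controls for 9 of the 10 genes, all but *Ebf3*, and it exceeded the mean of the other 3 controls 1.84 times for *Slc17a6*, 1.61 times for *Nefl* and 1.58 times for *Sncg*. For *Nefm* and *Ebf3* the same ratios were 1.09 and 1.10. Control replicate 4, which held the lens signal, was the lowest control for 6 members. Averaged over the members, the deviation from the group mean was 0.31 (log2) in control replicate 1 and between -0.17 and 0.05 in the other 7 samples. Without control replicate 1, the log2 fold changes of *Ebf1*, *Sncg* and *Nefl* became 0.03, 0.13 and 0.13, and none of the 3 passed the test. Control replicate 1 was also the highest sample in the summed levels of rod genes (3713 CPM, 1280 to 2899 in the other samples). So it was for astrocyte genes (269 CPM, 65.1 to 151 in the others). The same held for Müller glial, ON bipolar and mural genes (2625, 1599 and 93.2 CPM). It was the lowest sample for cycling progenitor, starburst amacrine and other amacrine genes (1494, 179 and 1941 CPM). Its difference thus reached several of these lists, but single genes weighed heavily in some sums. *Otx2* made up 1265 CPM of its ON bipolar sum. In the starburst list *Sox2* was lowest in this sample (67.9 CPM, 87.7 to 147.8 in the others), while *Slc5a7* was highest (3.64 CPM). The part of these cell types in the members' levels was not tested.

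**Figure D3:**
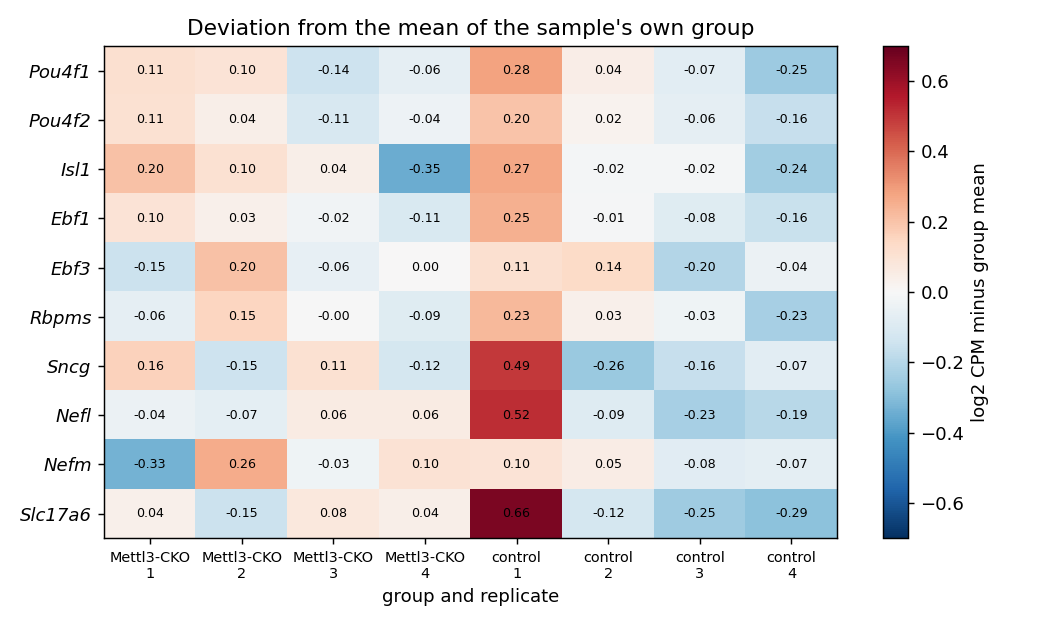
Deviation of log2 CPM from the mean of the sample's own group, for each gene (rows) and sample (columns), red above and blue below the mean. Control replicate 1 is above its group mean for all 10 genes, up to 0.66 for *Slc17a6*, while *Mettl3*-CKO samples deviate in different directions for *Nefm*, *Ebf3* and *Isl1*.

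Within groups the members tended to vary together. Pearson's r of these deviations over the 8 samples was positive for 42 of 45 pairs of members, with a median of 0.64, and the points share control replicate 1 and the scaling of each library. It was highest for *Pou4f1* with *Pou4f2* (r = 0.99) and for *Nefl* with *Slc17a6* (r = 0.99), and lowest for *Sncg* with *Nefm* (r = -0.19). By the same measure, the genes most like the mean of the members over the 8 samples included *Immt*, *Kbtbd2*, *Lars*, *Stard7*, *Gnl2*, *Ltv1*, *Dusp11*, *Wac* and *Slc3a2*, with r of 0.98 to 0.99. None of these is a gene of the ganglion cell lists used here. *Kbtbd2* was higher in *Mettl3*-CKO samples (log2 fold change 0.39, edgeR adjusted p = 0.0272), and the others named here did not pass.

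The ratio within a sample sets aside what a library gives to both genes of a pair. *Ebf1* over *Ebf3* in FPKM was 0.578, 0.433, 0.499 and 0.451 in *Mettl3*-CKO samples and 0.447, 0.368, 0.443 and 0.376 in controls, so that the groups overlapped. *Nefl* over *Nefm* was 2.58, 1.68, 2.25 and 2.05 in *Mettl3*-CKO samples and 2.44, 1.65, 1.64 and 1.67 in controls. Here control replicate 1 lay with the *Mettl3*-CKO samples and apart from the other controls. The overlapping exons of *Nefl* and *Nefm* make this ratio uncertain. In log2, *Pou4f1* over *Rbpms* was 1.27 ± 0.13 in *Mettl3*-CKO and 0.85 ± 0.04 in control samples, and *Pou4f1* over *Isl1* was 0.53 ± 0.20 and 0.20 ± 0.05 (SD, n = 4). The groups did not overlap for either ratio. Like *Pou4f1* over *Pou4f2*, both have *Pou4f1* on top, the only member whose own CPM did not overlap between groups. They are therefore not a separate result.

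**Figure D4:**
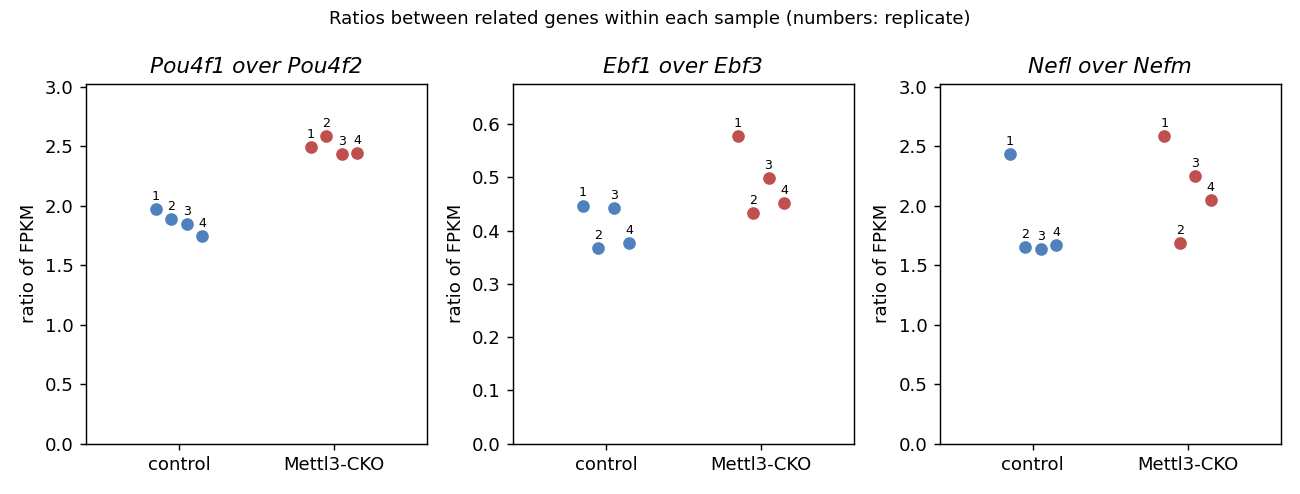
Ratio of FPKM (vertical axes, from 0) between related genes in each control (blue) and *Mettl3*-CKO (red) sample, with replicate numbers. The groups are apart for *Pou4f1* over *Pou4f2* (1.75 to 1.97 against 2.44 to 2.59) and overlap for the other ratios drawn here. The level of *Pou4f1* alone is also apart between the groups.

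Per length, the axonal genes were the most abundant. In control samples *Sncg* was at 84.9 ± 21.7 FPKM, *Nefl* at 51.1 ± 13.6 and *Nefm* at 27.5 ± 1.65 (SD, n = 4). *Sncg* and *Nefl* overlapped between samples, while *Nefm* was below every value of *Nefl* and above every value of *Pou4f1*. The places of *Nefl* and *Nefm* are uncertain because their exons overlap. *Pou4f1* at 13.8 ± 2.17 FPKM, *Isl1* at 12.0 ± 1.78, *Ebf3* at 9.17 ± 0.98, *Slc17a6* at 8.27 ± 2.90, *Rbpms* at 7.59 ± 0.99 and *Pou4f2* at 7.36 ± 0.80 formed a run in which each overlapped the next. *Ebf1* was the lowest at 3.74 ± 0.48 FPKM and below all values of *Pou4f2*. In *Mettl3*-CKO samples *Pou4f1*, at 20.1 ± 1.71 FPKM, overlapped *Nefm* at 23.1 ± 3.88 and no longer overlapped *Isl1* at 14.04 ± 2.20. *Ebf3*, at 7.38 ± 0.79 FPKM, came after *Slc17a6*, *Rbpms* and *Pou4f2* there, although these 4 neighbours overlapped in turn.

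Beyond the members, 52 further genes of ganglion cells, grouped as fate factors, subtype factors, axon and surface genes and subtype markers, were all tested. Of these, 6 were higher and 3 lower, and the median log2 fold change was 0.07. The called share, 9 of 52, compares with 10.5% of all tested genes, and without control replicate 1 13 were higher and 3 lower, against 17.4% of all genes. The lists were written with earlier results of these data known.

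Among 11 fate factors, *Atoh7*, *Sox11* and *Onecut2* were higher and *Myt1* was lower. *Atoh7*, the competence factor for ganglion cells, was at 44.5, 29.3, 27.0 and 24.9 CPM in *Mettl3*-CKO samples and at 9.04, 10.2, 12.7 and 10.2 CPM in controls. The lowest *Mettl3*-CKO sample was well above the highest control, and the log2 fold change was 1.57 (SE 0.18, edgeR adjusted p = 0.000434). *Sox11*, a SoxC factor of young neurons, was at 264, 262, 200.5 and 179 CPM against 96.0, 125, 138 and 132 CPM, also without overlap (log2 fold change 0.88, SE 0.14, adjusted p = 0.00269). *Onecut2*, which acts in early-born retinal neurons, had a log2 fold change of 0.58 (adjusted p = 0.0383) and passed in 2 of 8 fits that left out a sample. *Myt1*, a zinc finger factor of neural differentiation, fell from a control range of 241 to 265 CPM to 164 to 206 CPM (log2 fold change -0.40, SE 0.09, edgeR adjusted p = 0.0127). The POU factor *Pou4f3* (0.24) and the EBF genes *Ebf2* (-0.30) and *Ebf4* (0.03), relatives of the members, did not pass.

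*Atoh7* and *Sox11* are also active in progenitors and newborn cells. Of 10 genes of cycling progenitors, 4 were higher and 0 lower, all 10 had positive log2 fold changes, and their summed levels were 1956 to 2633 CPM in *Mettl3*-CKO and 1494 to 1864 CPM in control samples. None of these genes was at 0 in all samples. Of 8 rod genes, 5 were lower and 0 higher, with summed levels of 1280 to 2363 and 2502 to 3713 CPM. The part of either cell type in the levels of the ganglion cell genes was not tested.

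**Figure D5:**
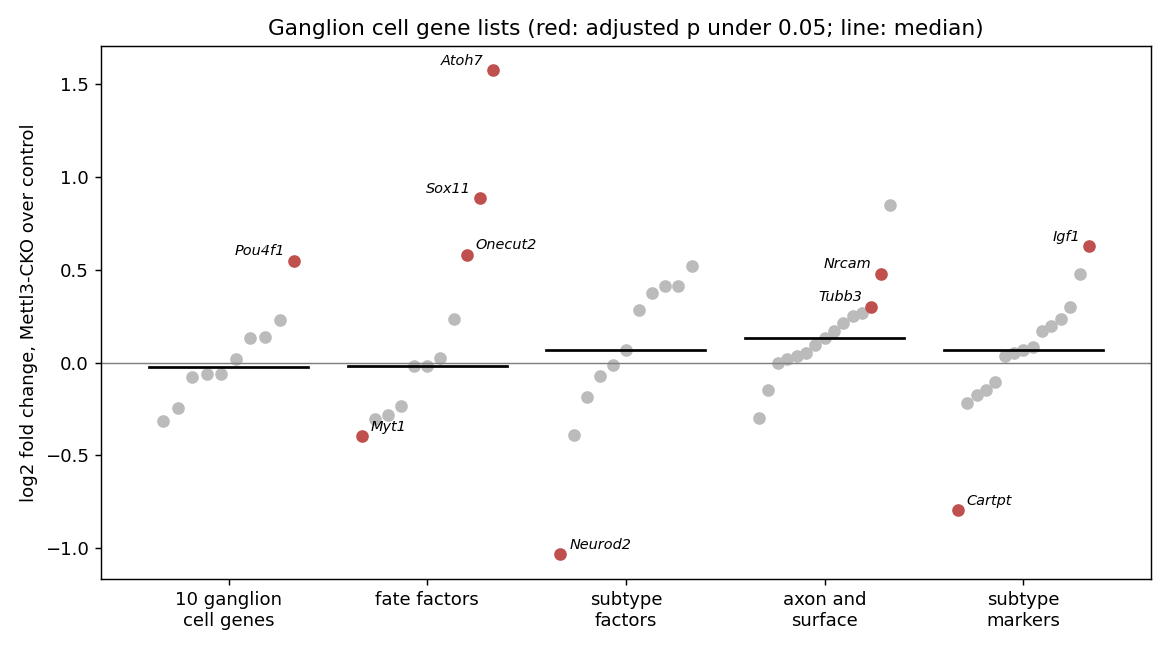
Log2 fold change, *Mettl3*-CKO over control (vertical axis), of each gene in 5 ganglion cell lists, red where the adjusted p was under 0.05 and grey otherwise, with the list median as a black line. Over the 5 lists together, called genes lie on both sides of 0, from -1.03 for *Neurod2* to 1.57 for *Atoh7*. The fate factors hold the most, 3 higher and 1 lower of 11.

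Of 11 subtype factors, *Neurod2* alone passed. This basic helix-loop-helix gene, also used by amacrine cells, was at 8.74, 14.6, 9.35 and 15.5 CPM in *Mettl3*-CKO samples and at 20.5, 26.6, 26.1 and 25.4 CPM in controls, with no overlap (log2 fold change -1.03, SE 0.18, edgeR adjusted p = 0.00434). Factors of other subtypes did not pass, among them *Eomes* (-0.07) and *Tbr1* (0.52). The groups did not overlap for *Tbr1*, which passed with voom and without control replicate 1, and *Tbx20* passed without control replicate 1.

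Of 15 axon and surface genes, *Nrcam* and *Tubb3* were higher and none was lower, and 12 had positive log2 fold changes. *Nrcam*, a cell adhesion gene of growing axons, was at 237 to 277 CPM in *Mettl3*-CKO and 174 to 204 CPM in control samples (log2 fold change 0.48, SE 0.09, edgeR adjusted p = 0.0052). *Tubb3*, the neuronal tubulin gene, was at 496 to 557 and 388 to 482 CPM, with a log2 fold change of 0.30 and an adjusted p of 0.0497, and it passed in only 1 of 8 fits that left out a sample. *Thy1* (0.02), *Nefh* (-0.30), *Stmn2* (0.25) and *Gap43* (0.27) did not pass over all samples. Without control replicate 1, *Stmn2*, *Gap43* and *Elavl4* passed as well.

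Of 15 subtype markers, *Igf1* was higher and *Cartpt* was lower. *Cartpt*, a neuropeptide gene of direction-selective ganglion cells, was at 8.79, 6.73, 9.93 and 11.1 CPM in *Mettl3*-CKO samples and at 22.9, 12.9, 13.8 and 13.8 CPM in controls. The groups did not overlap, and control replicate 1 was again the highest (log2 fold change -0.79, SE 0.20, edgeR adjusted p = 0.0259). *Igf1*, a growth factor gene, was at 31.0 to 37.1 and 19.3 to 29.0 CPM (log2 fold change 0.63, SE 0.14, edgeR adjusted p = 0.013). *Opn4*, the melanopsin gene of intrinsically photosensitive cells, was at 5.08 to 6.27 and 3.69 to 7.28 CPM and did not pass. *Rbpms2* and *Chrnb3* passed with voom and without control replicate 1, and *Penk* passed with voom, while none of them passed in the main fit. *Atoh7*, *Sox11*, *Myt1*, *Neurod2* and *Nrcam* passed in all 8 fits that left out a sample, *Igf1* in 7 and *Cartpt* in 5.

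Markers of the remaining cell types that a dissected retina could hold were counted in the same way. Of 8 horizontal cell genes, none passed. Of 7 tested Müller glial genes 1 was higher and 1 lower, and of 5 tested oligodendrocyte genes 2 were higher. Lower were 7 of 9 endothelial, 3 of 6 astrocyte, 2 of 3 erythrocyte and 4 of 6 lens genes, and none of these was higher. The lens signal lay mostly in control replicate 4. Astrocytes lie along ganglion cell axons, and the summed levels of their genes were 65.1 to 99.4 CPM in *Mettl3*-CKO and 121 to 269 CPM in control samples. *Pdgfra* weighed heavily in these sums, with a mean of 48.5 CPM in *Mettl3*-CKO and 88.7 CPM in control samples. The part of astrocytes in the levels of the axonal genes was not tested.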

How the data were processed

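RNA of 4 *Mettl3*-CKO and 4 control retinal samples was sequenced. According to the methods, the authors removed low-quality reads, used Hisat2 to place the rest on GRCm38, obtained gene counts with featureCounts, and deposited these raw counts. The annotation release and the strand setting are not given in the sources used here. Columns were matched to samples by the labels.

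Genes were kept by filterByExpr (17998 genes), scaled by TMM and tested in R 4.3.3 with edgeR 4.0.16 (glmQLFit, glmQLFTest), with Benjamini-Hochberg adjustment over all tested genes and a threshold of 0.05. The SE is the absolute log2 fold change divided by the square root of F, and 95% intervals use the degrees of freedom of the test. DESeq2 1.42.0 and limma 3.58.1 were alternatives. The fits were tested on simulated data. The biological coefficient of variation was 15%, and intervals from counts alone would be narrower. No pair of samples was the same library counted again, since the lowest chi-square was 5.45 per gene. That was for control replicates 2 and 3, and the next control pair was at 13.78. The measure cannot show whether samples came from separate animals.

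All 10 members are named, with every called gene of the other ganglion cell lists, genes that did not pass as examples chosen after their values were seen, genes among the 10 most like the members, and *Mettl3*. *Notch3*, *Otx2*, *Sox2* and *Pdgfra* are named for their weight in the summed levels of their lists, and *Slc5a7* beside *Sox2*. Some items that this rule admits are not reported here. The members and lists were chosen with earlier results of these data known.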

Additional observations from a re-analysis of the deposited data

Results flagged for a closer look

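In control samples, the level of *Nefl* in replicate 1 (241.3 CPM) was on the CPM scale farther from the other 3 controls (144 to 158 CPM) than Dixon's limit at 95% allows, and so was that of *Slc17a6* (67.95 CPM, against 35.2 to 39.4 CPM). Of the 20 groups of 4 samples that the 10 members give, 2 were marked in this way, where chance marks about 1. Both marks lie in the same library, so they are not independent of each other. The marks depended on the scale. On log2 CPM neither stood (a gap of 0.813 of the group's range for *Nefl* and 0.8288 for *Slc17a6*, both under the limit), and the only value past the limit was that of *Slc17a6* in *Mettl3*-CKO replicate 2 (0.8301), which was the lowest of its group.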

How the results depend on the processing

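*Pou4f1* kept its direction and passed at 0.05 under the 8 other fits with all samples, the 8 that left out a sample and the 1 that left out control replicates 1 and 4 together, which was added after the data had been seen. The number of members called was 2 with DESeq2, 2 with voom, 0 at a threshold of 0.01, and 1 to 2 when a sample was left out, the 2 coming without control replicate 1. Over all genes, 1168 were higher and 729 lower. With voom these were 2142 and 1568, at a threshold of 0.01 they were 439 and 147, and with a sample left out they ranged from 509 to 1882 and from 185 to 1289. The low ends came from leaving out *Mettl3*-CKO replicate 1 and the high ends from leaving out control replicate 1. Over the other lists, 47 genes were called, with 19 at a threshold of 0.01 and 23 to 60 with a sample left out. Of all tested genes, 10.5% were called, and 3.79 to 17.4% with a sample left out. The lists were written with earlier results of these data known, so the count of 47 does not measure an excess of calls. Log2 fold changes near 0 changed sign. *Ebf1* was at 0.03 without control replicate 1. *Sncg* was at 0.12 with voom, 0.13 without control replicate 1 and 0.18 without control replicates 1 and 4, and *Nefl* was at 0.11, 0.13 and 0.12 under the same settings. With a sample left out, *Ebf1* ranged from -0.11 to 0.032, *Sncg* from -0.14 to 0.13, *Nefl* from -0.15 to 0.13 and *Slc17a6* from -0.082 to 0.29. *Slc17a6* was at -0.0001 without *Mettl3*-CKO replicate 3 and at -0.03, -0.06 and -0.08 without control replicates 2, 3 and 4. The cause was not tested. With the replicate number as a block, 1198 genes were higher and 660 lower, with 1 member and 43 other list genes called, and *Pou4f1* remained the member called. Same-numbered samples did not deviate together throughout (r = -0.11, 0.22, -0.11 and 0.25 for numbers 1 to 4), so they share only a number, and not every sample correlated best with its own. The other settings, which were DESeq2 size factors, library totals, upper-quartile scaling, no filter on low counts and a CPM of at least 1 in 4 samples, called 1 member each. The members had at least 347 counts in every sample, and whether depth or the number of samples limits their calls was not tested.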
